A study of Zea mays with 24 samples.

Results

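Nuclear genes for 4 chloroplast proteins of maize were followed through the leaves of 4 inbred lines. They were rbcs1, for the small subunit of Rubisco, bsd2, for a chaperone of Rubisco assembly, fdx3, for a ferredoxin, and tha4, for a subunit of a thylakoid protein translocase. Members were taken by name: a probe set belonged to a gene if its symbol in the platform annotation, or a synonym in the RefSeq gene table for Zm-B73-REFERENCE-NAM-5.0, the B73 genome, was that of the gene. All 4 genes were found, as 4 of the 579 named genes tested, and they had 6 of the 852 named probe sets among 8346 tested. A probe set is a group of short oligonucleotide probes that together report 1 transcript sequence. rbcs1 (gene ID 542212) had 3 of them, Zm3.6763.1.A1_at, Zm1.6763.1.S1_s_at and Zm1.6763.1.S1_x_at. bsd2 (732793) had Zm3.633.1.A1_at, fdx3 (542276) had Zm3.4.1.A1_at, and tha4 (541788) had Zm3.470.1.A1_at.

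Rubisco fixes carbon dioxide in the Calvin cycle. Its large subunit is encoded in the chloroplast genome and its small subunit in the nucleus, and in the maize leaf, a C4 leaf, the enzyme accumulates in the bundle sheath cells and not in the mesophyll cells around them. BSD2 is a DnaJ-type zinc finger protein needed for Rubisco to accumulate, named after the maize mutant bundle sheath defective2. Ferredoxins are small iron-sulphur proteins that hand electrons from photosystem I, or in non-green plastids from NADPH, to enzymes of nitrogen, sulphur and carbon metabolism. The protein of fdx3 is the ferredoxin known from maize roots, of the non-photosynthetic kind. THA4 is the TatA-type subunit of the twin-arginine, or delta-pH, pathway, which carries folded proteins across the thylakoid membrane.

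The lines were B73, Mo17, W23 and Wf9, and the labels give no treatment. Each sample pooled the leaves numbered 3 to 5 of several greenhouse plants. Growing the plants, harvesting them and extracting RNA was done 3 times per line, and each RNA went onto 2 arrays, which gave 12 RNAs and 24 arrays. Values are probe set signals on a linear scale, and the signal of an RNA is the mean of its 2 arrays, so n is 3 per line throughout. The p-values treat the 3 RNAs of a line as separate samples.

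The labelled tissue was checked against marker genes. The mesophyll probe sets were those of pdk1 and mdh6 alone, and the bundle sheath probe sets those of me3 and rca1. Of 6 mesophyll probe sets, 5 lay above the background signal of 16.7 on all 24 arrays, as did 3 of 3 for the bundle sheath. All 4 seed storage probe sets and the 1 for pollen lay at or below it on every array. Of 2 root probe sets, 0 lay above it on all arrays and 0 at or below it on all. Their summed signal reached 193 in W23. One array stood apart. B73 replicate 3 array 1 held all 213 exact zeros of the table, and across probe sets it correlated with its technical partner at 0.948, against 0.994 or more in the other 11 pairs. None of its zeros fell on the 4 genes, whose lowest signal on any array was 62.6, in tha4. W23 replicates 2 and 3 were close to each other: over 3597 bright probe sets the SD of their log2 difference was 0.18, against 0.383 to 0.934 in the other 11 pairs of replicates of a line.

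Probe set signals of fdx3, tha4 and bsd2 differed among the lines, and those of rbcs1 did not pass the test. Differences were tested on log2(signal + 16) with limma, by a moderated F-test over the 4 lines and by 6 contrasts between lines, each with Benjamini-Hochberg adjustment over all 8346 probe sets and a threshold of 0.05. The F-test called 3 of the 6 probe sets, against 30.5% of all tested probe sets and 29.9% of the 2526 with a signal over 100 in all 12 RNAs. The median range of the line means was 0.93 on the log2 scale for the 6 probe sets. It was 0.56 for those 2526 and 0.46 for all tested. The spread of the 6 within lines was also wider, with a median SD of 0.33 against 0.26 and 0.20. The 6 include 3 probe sets of 1 gene, rbcs1. In bulk leaf RNA, fewer cells of a type and less transcript per cell cannot be told apart. A sequence difference between lines under the probes could also change a signal, and this was not tested.

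**Figure D1:**
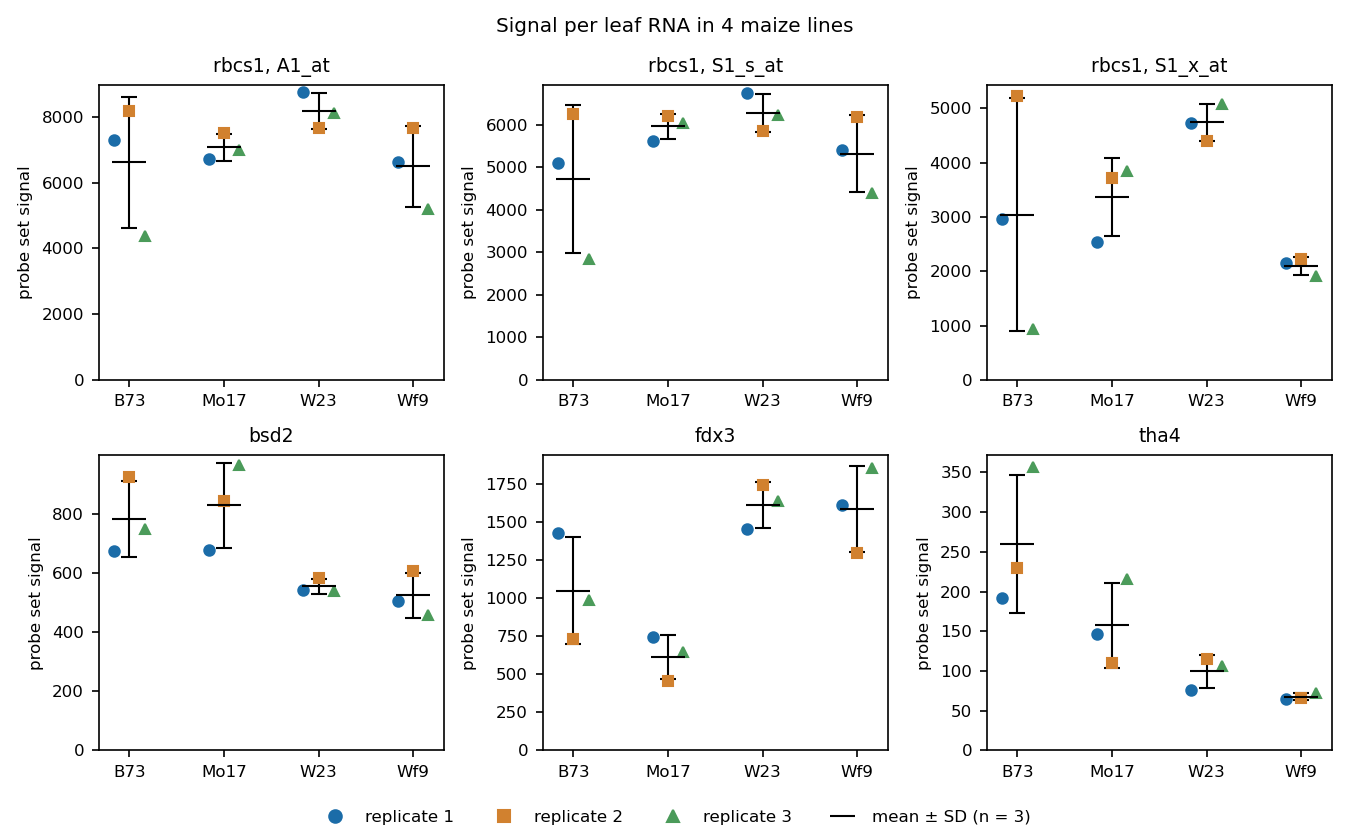
Signal of the 6 probe sets in each of the 12 leaf RNAs, on linear axes that start at 0 and differ between panels. Points are RNAs, marked by replicate number, and bars show the mean and SD of 3 replicates. In fdx3 the 3 Mo17 RNAs (454 to 743) lie below all W23 and Wf9 RNAs (1295 to 1858), in tha4 the 3 B73 RNAs (192 to 357) lie above all W23 and Wf9 RNAs (65.3 to 115), and in the rbcs1 panels B73 is the most scattered line.

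The small subunit of Rubisco was read brightly in every RNA. Probe set Zm3.6763.1.A1_at had signals of 7294, 8193 and 4388 in B73 replicates 1, 2 and 3. Mo17 had 6724, 7524 and 7000, W23 had 8772, 7654 and 8135, and Wf9 had 6621, 7670 and 5214. The lowest 2 values belonged to replicate 3 of B73 and of Wf9, and only Mo17 and W23 did not overlap. The F-test gave an adjusted p of 0.560. Over its 6 contrasts, the 95% intervals of the log2 differences lay between -0.86 and 0.85. The miss does not show equal levels.

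The other rbcs1 probe sets carry suffixes that mark probes shared with further sequences, so they can hold signal from other members of the small subunit family. Zm1.6763.1.S1_s_at read 5101, 6257 and 2835 in B73, 5627, 6211 and 6045 in Mo17, 6751, 5848 and 6231 in W23, and 5403, 6174 and 4387 in Wf9. It showed the same scatter as the first probe set, with B73 replicate 3 lowest, and its F-test gave an adjusted p of 0.426. An unnamed probe set with the same cluster number, Zm1.6763.4.S1_at, had an adjusted p of 0.426 as well, with line means of 6028 ± 2023 (B73), 5967 ± 795 (Mo17), 7774 ± 629 (W23) and 5901 ± 721 (Wf9; SD, n = 3). It was looked at after its cluster number was seen, and no gene is given to it here.

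The x-suffixed probe set of rbcs1 spread the lines further apart. Zm1.6763.1.S1_x_at read 2969, 5219 and 936 in B73, 2543, 3722 and 3841 in Mo17, 4734, 4392 and 5083 in W23, and 2145, 2231 and 1908 in Wf9. Mo17, W23 and Wf9 did not overlap with each other, with W23 highest and Wf9 lowest, while the B73 values ran from below all of them to above all of them. The line means were 3041 ± 2142 (B73), 3369 ± 718 (Mo17), 4736 ± 345 (W23) and 2095 ± 168 (Wf9; SD, n = 3). The F-test missed the threshold, with an adjusted p of 0.311. W23 exceeded Wf9 by a log2 difference of 1.17 ± 0.60 (SE), with a 95% interval of -0.13 to 2.47 and an adjusted p of 0.238. Between B73 and Wf9 the mean of the signals was higher in B73 and the mean of the log2 values lower, by -0.04.

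That miss depended on which B73 samples were kept. On array 1 of B73 replicate 3 the x-suffixed probe set read 158, and on array 2 it read 1714. That was a 10.8-fold gap between arrays of 1 RNA. The other 11 technical pairs differed by at most 0.43 on the log2 scale. Without that array 1, the contrast of W23 with Wf9 had an adjusted p of 0.0241. The F-test stayed above the threshold, at 0.0666. Without the whole RNA, the F-test gave 0.00866, the contrast of W23 with Wf9 gave 0.00306, and B73 exceeded Wf9 by 0.90 on the log2 scale with an adjusted p of 0.0304. Leaving out B73 replicate 2 instead put B73 below W23 by -1.90 on the log2 scale, with an adjusted p of 0.0284. The F-test then gave 0.0546.

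Whether the rbcs1 probe sets moved unequally across lines was tested on the log2 difference between the x-suffixed and the A1 probe set within each RNA. The mean difference was -1.65 for B73, -1.09 for Mo17, -0.79 for W23 and -1.61 for Wf9. By replicate it was -1.31, -0.65 and -3.00 in B73, -1.40, -1.01 and -0.85 in Mo17, -0.89, -0.79 and -0.68 in W23, and -1.62, -1.77 and -1.45 in Wf9. Wf9 lay below Mo17 and W23 in every replicate, and B73 spanned the range of the other lines. An exact permutation test of the 4 lines, a test chosen after the values were seen, gave p = 0.294 over 15400 arrangements. Against the s-suffixed probe set it gave 0.256. The exact permutation p was 0.0431 without B73 replicate 3 array 1, 0.0312 without B73 replicate 3 and 0.0414 without B73 replicate 2.

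**Figure D2:**
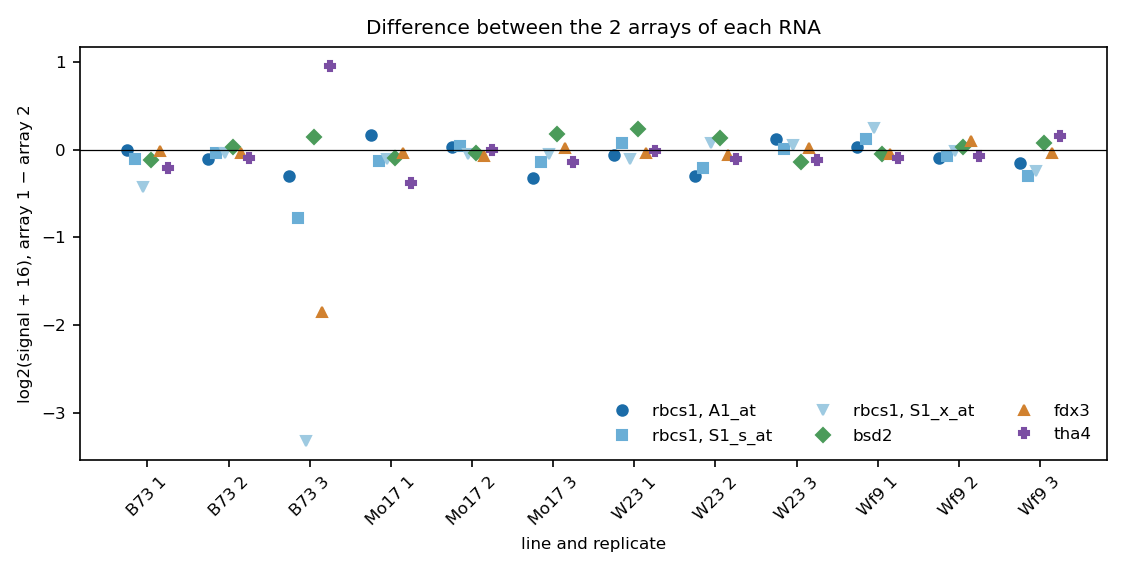
Difference of log2(signal + 16) between array 1 and array 2 of each RNA, for the 6 probe sets. Points near 0 are technical pairs that read alike. B73 replicate 3 stands out, with differences of -3.31 for the x-suffixed rbcs1 probe set, -1.84 for fdx3 and 0.95 for tha4, against at most 0.43 in size in the other 11 pairs.

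The signal of the Rubisco chaperone gene bsd2 was higher in Mo17 than in Wf9. Signals were 675, 924 and 750 in B73, 680, 843 and 967 in Mo17, 543, 583 and 539 in W23, and 507, 608 and 460 in Wf9. Every B73 and Mo17 value lay above every W23 and Wf9 value. The line means were 783 ± 128, 830 ± 144, 555 ± 24.3 and 525 ± 75.9 in that order (SD, n = 3), and the F-test gave an adjusted p of 0.0256. Mo17 exceeded Wf9 1.58-fold, a log2 difference of 0.64 ± 0.18 (SE) with an adjusted p of 0.0269.

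In the order of bsd2 levels, Mo17, B73, W23 and Wf9, neither of the close pairs at the ends differed beyond its spread. The interval of B73 minus Mo17 was -0.46 to 0.31 on the log2 scale, and that of W23 minus Wf9 was -0.30 to 0.47. Across the gap in the middle, B73 exceeded W23 1.40-fold and Wf9 1.49-fold, and Mo17 exceeded W23 1.48-fold, but these 3 contrasts missed the threshold with adjusted p of 0.0931, 0.0537 and 0.0576. The F-test call was lost, with adjusted p from 0.0532 to 0.0674, on leaving out Mo17 replicate 2, Mo17 replicate 3, W23 replicate 3, Wf9 replicate 1 or Wf9 replicate 3, and with W23 replicates 2 and 3 counted as 1. These omissions of 1 RNA, except that of W23 replicate 3, also ended the contrast of Mo17 with Wf9, with adjusted p from 0.0847 to 0.103. Other settings added calls. B73 against Wf9 and Mo17 against W23 passed with dim probe sets left out (0.0438 and 0.0473) and without the mean-variance trend (0.0362 and 0.0397), and all 3 missed contrasts passed with the 24 arrays fitted and the RNA as a random block (0.00338 to 0.0112). B73 against Wf9 also passed without Mo17 replicate 1, Mo17 replicate 3 or Wf9 replicate 2 (0.0448 to 0.0492). Mo17 against W23 passed without B73 replicate 2, B73 replicate 3, its array 1 alone or Mo17 replicate 1 (0.0371 to 0.0493).

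The ferredoxin gene fdx3 was lowest in Mo17. Its signals were 1429, 735 and 985 in B73, 743, 454 and 645 in Mo17, 1452, 1747 and 1642 in W23, and 1613, 1295 and 1858 in Wf9. All 3 Mo17 values lay below all values of W23 and Wf9, while B73 overlapped with Mo17 and with Wf9. The line means were 1050 ± 352 (B73), 614 ± 147 (Mo17), 1614 ± 149 (W23) and 1588 ± 282 (Wf9; SD, n = 3). The F-test gave an adjusted p of 0.00328. W23 exceeded Mo17 2.68-fold (log2 difference 1.40 ± 0.26, SE), with an adjusted p of 0.00285, and Wf9 exceeded Mo17 2.61-fold, with an adjusted p of 0.00313.

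W23 and Wf9 could not be separated for fdx3, with an interval of -0.53 to 0.60 on the log2 scale. B73 lay between them and Mo17 and passed the test against no line: the adjusted p was 0.129 against Mo17, 0.0717 against W23 and 0.0887 against Wf9. The place of B73 depended on single samples. On B73 replicate 3, array 1 read 420 and array 2 read 1551, a 3.69-fold gap, against at most 0.09 on the log2 scale in the other 11 technical pairs. Without array 1, and so with array 2 alone for that RNA, the B73 mean was 1238 ± 440 (SD, n = 3) and B73 exceeded Mo17 by 0.95 on the log2 scale, with an adjusted p of 0.0347. Without B73 replicate 1, B73 was below W23 with an adjusted p of 0.0124 and below Wf9 with 0.0165.

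Since fdx3 is known from roots, root marker levels are given beside it. The summed signal of 2 root probe sets ran from 29.3 to 99.4 in B73, 31.5 to 35.2 in Mo17, 52.9 to 193 in W23 and 15.6 to 38.4 in Wf9. The highest sum was found in W23. The background of 16.7 holds for a single probe set, so the Mo17 and Wf9 sums, and the lowest B73 sum, lay near background. The order of Mo17 and Wf9 is not read. The part of the root markers in the fdx3 result was not tested.

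The thylakoid translocase gene tha4 was highest in B73 and lowest in Wf9. Signals were 192, 230 and 357 in B73, 146, 110 and 216 in Mo17, 76.6, 115 and 107 in W23, and 65.3, 65.4 and 72.6 in Wf9. B73 did not overlap with W23 or Wf9, and Wf9 lay below every value of every other line. The line means were 260 ± 86.4 (B73), 158 ± 53.6 (Mo17), 99.5 ± 20.2 (W23) and 67.8 ± 4.17 (Wf9; SD, n = 3), and the F-test gave an adjusted p of 0.00158.

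For tha4, B73 exceeded Wf9 3.71-fold (log2 difference 1.65 ± 0.25, SE), with an adjusted p of 0.000795, and W23 2.56-fold (1.20 ± 0.25), with an adjusted p of 0.00601. Mo17 exceeded Wf9 2.24-fold, with an adjusted p of 0.0165, a call that ended without Mo17 replicate 3 (0.0667) or Wf9 replicate 1 (0.0558). No neighbours in the order B73, Mo17, W23 and Wf9 passed: adjusted p was 0.115, 0.195 and 0.293 from the top down, although without Mo17 replicate 3 B73 exceeded Mo17 with an adjusted p of 0.0403. B73 replicate 3 read 476 on array 1 and 238 on array 2. Without array 1 the B73 mean was 220 ± 24.7 (SD, n = 3), and both calls of B73 stood, at log2 differences of 1.49 from Wf9 and 1.04 from W23.

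**Figure D3:**
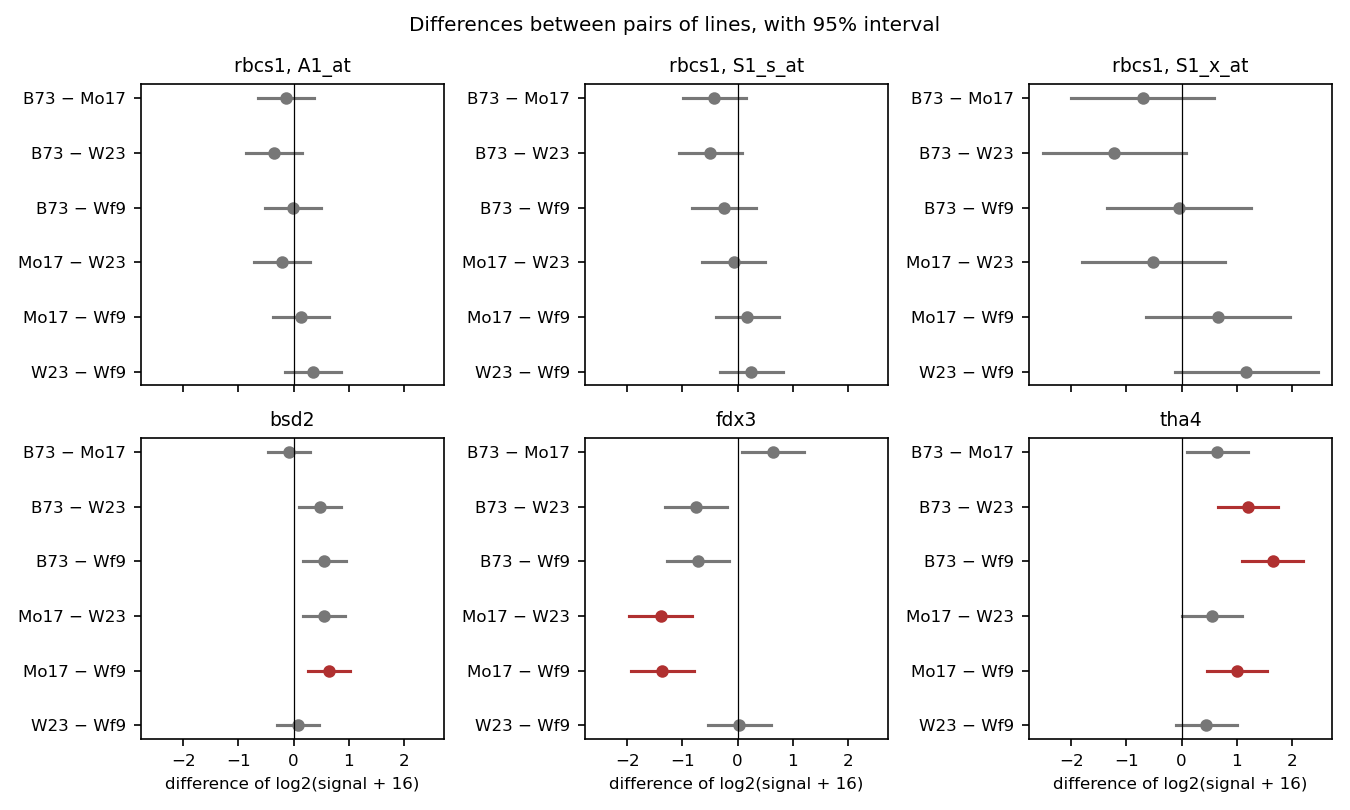
Difference of log2(signal + 16) between each pair of lines for the 6 probe sets, with the 95% interval of the limma fit. Red marks an adjusted p under 0.05. Mo17 is below W23 and Wf9 in fdx3, B73 is above W23 and Wf9 in tha4, Mo17 is above Wf9 in bsd2 and tha4, and every rbcs1 interval includes 0.

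Over all 6 contrasts, 6 of the differences passed. B73 against Mo17 had 0 of the 6 probe sets called, against 14.7% of all tested, and in 0 the replicates did not overlap, against 29.8% of all tested. B73 against W23 had 1 called, tha4, against 16%, and 3 without overlap, against 33.5%. B73 against Wf9 had 1 called, tha4 again, against 14.5%, and 2 without overlap, against 29.1%. Mo17 against W23 had 1 called, fdx3, against 13.9%, and 4 without overlap, against 33.5%. Mo17 against Wf9 had 3 called, bsd2, fdx3 and tha4, against 16.3%, and 4 without overlap, against 32.3%. W23 against Wf9 had 0 called, against 15.3%, and 2 without overlap, against 35.4%. The genes did not share 1 order of lines: fdx3 was highest where bsd2 and tha4 were low, in W23 and Wf9. These contrasts share lines, so their counts are not separate evidence.

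The growth replicates were compared next. The labels number growth, harvest and extraction from 1 to 3 within each line and do not say that a number was shared between lines. An F-test of the growth number with line in the model called 0 of the 6 probe sets and 0.00% of all tested by limma, where 1551 probe sets had an unadjusted p under 0.05. The adjusted p of the 6 lay between 0.289 and 0.558. Without W23 replicate 2 the same test called 828 probe sets, none of them among the 6.

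The order of the lines at each growth number is given as a description, since the same values entered the F-test over lines. Mo17 was lowest for fdx3 and B73 next to lowest at each of the 3 numbers. For tha4, B73 was highest at each number, and Wf9, which overlapped with no line, was lowest. In the A1 probe set of rbcs1, B73 was highest at number 2 and lowest at number 3. fdx3 was lowest at number 2 in B73, Mo17 and Wf9 but highest there in W23.

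**Figure D4:**
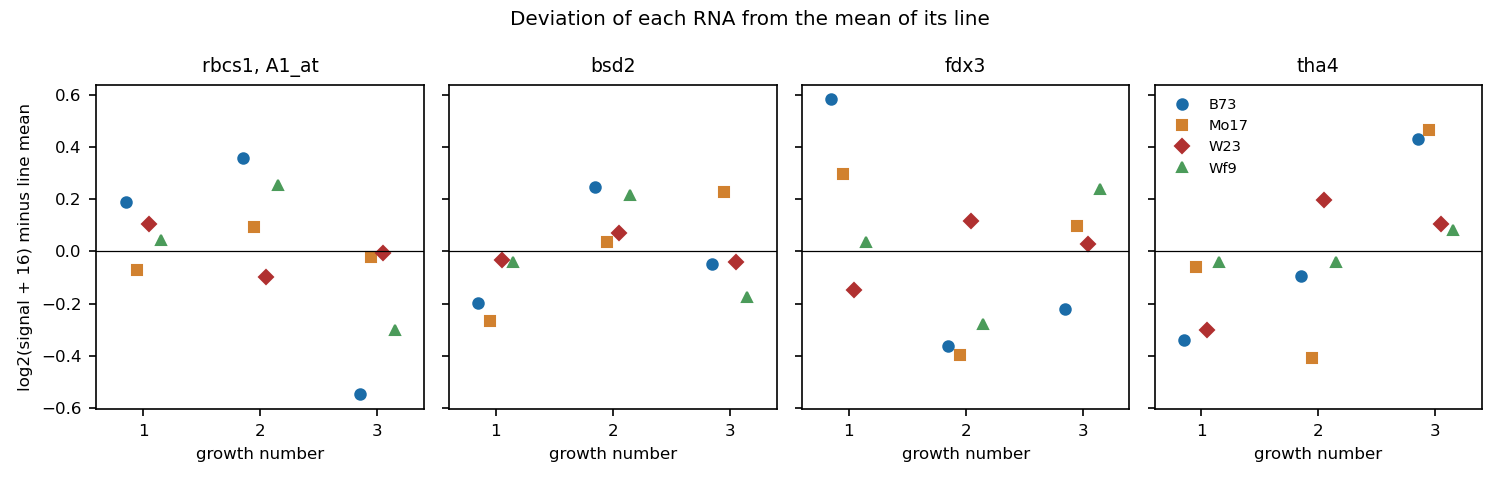
Deviation of each RNA from the mean of its own line on the log2(signal + 16) scale, by growth number, for the A1 probe set of rbcs1 and for bsd2, fdx3 and tha4. Deviations lie within about 0.6 of the line mean, and fdx3 at number 2 is below it in 3 lines and above it in W23.

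Of the other genes of these pathways, csr1 alone passed the F-test. Lists of Rubisco and Calvin cycle, C4 cycle, ferredoxin, light harvesting, and translocation and chaperone genes, with the 4 genes left out, held 21 genes on 30 probe sets, of which 1 passed the F-test, or 3.33%. The median range of their line means was 0.38 on the log2 scale, below the 0.46 of all tested probe sets. It was 0.56 for tested probe sets with a signal over 100 in all 12 RNAs. None of 3 probe sets passed for the Calvin cycle, where the brightest was gpa1, for a plastid glyceraldehyde-3-phosphate dehydrogenase (adjusted p 0.601). None of 8 passed for the C4 cycle, where the brightest was pdk1, for pyruvate orthophosphate dikinase (0.516). None of 12 passed for light harvesting and the photosystems, where the brightest was Cab-m7, for a chlorophyll a/b-binding protein (0.646).

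Among ferredoxins and their partners 0 of 3 probe sets passed, and the brightest was trm1, for an m-type thioredoxin (adjusted p 0.807). fdx2, for a ferredoxin of the photosynthetic kind, had line means of 3097 ± 829 (B73), 3530 ± 553 (Mo17), 4372 ± 878 (W23) and 4499 ± 918 (Wf9; SD, n = 3), with an adjusted p of 0.251. ftr1, for a subunit of ferredoxin-thioredoxin reductase, had an adjusted p of 0.458. Whether fdx3 and fdx2 differed in their response to line was not tested.

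The translocation list had 1 of 4 probe sets past the threshold, csr1. The files give this symbol without a description; in maize it has been used for a chloroplast receptor of the signal recognition particle, and the gene was put in the list on that reading. It read 171, 116 and 254 in B73, 221, 203 and 244 in Mo17, 150, 170 and 184 in W23, and 61.5, 36.6 and 85.6 in Wf9. Wf9 lay below every other RNA, as it did in tha4. The F-test gave an adjusted p of 0.00216, and Wf9 was lower than B73 by a log2 difference of 1.34 ± 0.27 (SE), with an adjusted p of 0.00565, and than W23 by 1.28, with 0.00632. The contrast of Mo17 with Wf9 was the widest, with an adjusted p of 0.00108.

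The partners of tha4 in the twin-arginine pathway did not pass. tha9, a close homolog of tha4, read 132, 343 and 75.0 in B73, 138, 182 and 294 in Mo17, 118, 463 and 404 in W23, and 59.5, 57.9 and 115 in Wf9. B73 and W23 were widely scattered, and the adjusted p was 0.119. The range of the tha9 line means was 1.74 on the log2 scale, against 1.65 for tha4. This miss does not show equal levels. hcf106, for the TatB-type subunit, had line means of 150 ± 60.6, 191 ± 26.2, 197 ± 72.6 and 131 ± 27.2 in B73, Mo17, W23 and Wf9 (SD, n = 3), with an adjusted p of 0.413. Its homolog hcf106c had an adjusted p of 0.299.

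**Figure D5:**
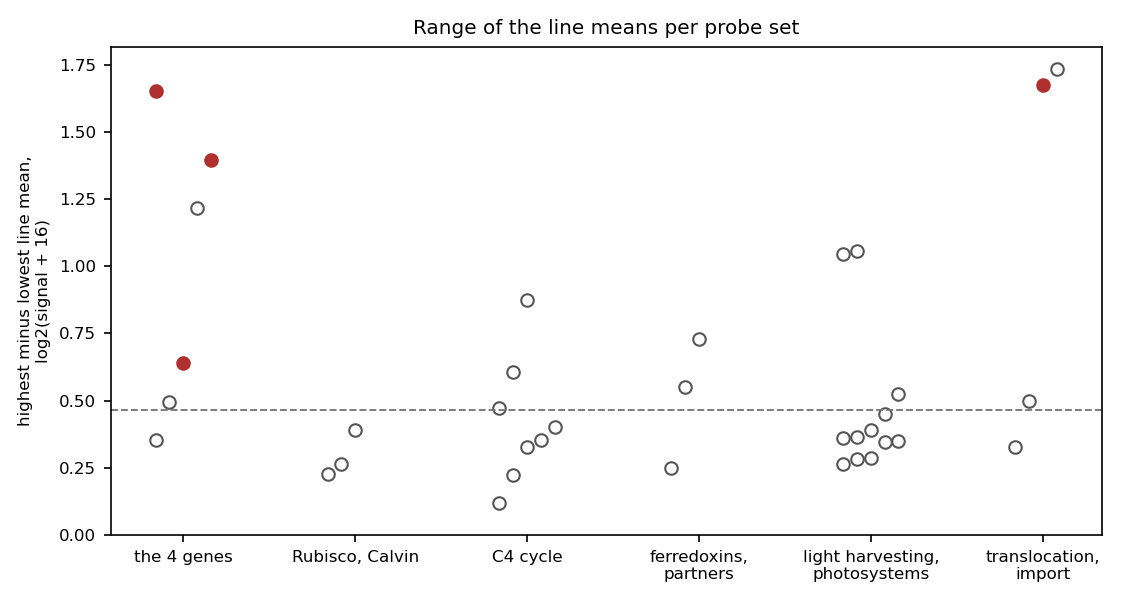
Highest minus lowest line mean of log2(signal + 16) for each probe set of the 4 genes and of 5 lists of chloroplast genes. Filled red points passed the F-test (adjusted p under 0.05), open points did not, and the dashed line is the median of all tested probe sets, 0.46. Of the 30 listed probe sets 1 passed, csr1 in the translocation list.

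Genes whose pattern over the 12 RNAs was most like that of each probe set were found among 664 named probe sets, by Pearson's r of log2(signal + 16). The 12 RNAs share lines and growth replicates, so r is given as a description. For the A1 and s-suffixed rbcs1 probe sets the closest gene was mdh6, for the NADP-malate dehydrogenase of the C4 cycle, with r of 0.933 and 0.976. gpa1 was also near both, at 0.920 and 0.957, and TPT, for the triose phosphate translocator, was near the s-suffixed one at 0.962. vpp1, for a vacuolar proton pyrophosphatase, reached 0.905 with the A1 probe set. The x-suffixed probe set was nearest to mez1, for an Enhancer of zeste homolog (0.959), mdh6 (0.932) and pOMT1 (0.911). None of these genes passed the F-test over lines. B73 replicate 3 was the lowest RNA in each rbcs1 probe set, and r was not computed without it. In the x-suffixed probe set it lay at 9.10 on the log2 scale, and the next lowest RNA, Wf9 replicate 3, at 10.9.

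bsd2 was nearest to tua3, for an alpha-tubulin (0.887), gst35, for a glutathione S-transferase (0.837), and mbd106, for a methyl-CpG-binding domain protein (0.826). The tua3 signal averaged 788 (B73), 917 (Mo17), 470 (W23) and 367 (Wf9), which is also a split of B73 and Mo17 from W23 and Wf9. fdx3 was nearest to PIP2-4, for a plasma membrane aquaporin (0.940), hsp70-4, annotated as a heat shock protein (0.926), and LOC542342 (0.891). hsp70-4 averaged 2132 (B73), 1253 (Mo17), 3347 (W23) and 2780 (Wf9), and Mo17 was lowest for PIP2-4 and LOC542342 too. tha4 was nearest to LOC542634 (0.902), a probe set of gst19, for another glutathione S-transferase (0.893), and cpi2, for a cystatin (0.853). All 3 averaged highest in B73. For cpi2 the mean was 453 in B73 and lowest in Wf9, at 198. cpi2 was nearly as high in Mo17 (444). LOC542634 (12.1) and gst19 (6.25) averaged below the background of 16.7 in Wf9, as gst19 did in W23 (13.5). gst35 averaged below it in W23 (8.97) and Wf9 (10.6). The order of lines below background is not read. A probe set could enter the search with only 6 of the 12 RNAs above background.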

How the data were processed

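Per the submitters' processing notes, the authors made the deposited intensities with MAS5 in GCOS, as 1 linear signal per probe set and array. The sources used here give no software version, scaling target or detection calls. Their 2% trimmed mean was 250.148 to 250.239 on all 24 arrays and was set equal, exact zeros were set to missing, and 129 control probe sets were left out. Signals averaged over the 2 arrays of an RNA are printed. For tests, log2(signal + 16) was averaged over the 2 arrays, which understates differences of dim probe sets, and fitted with limma 3.58.1 in R 4.3.3 (lmFit, eBayes with trend), line as the only term, on all 12 RNAs. The fit was tested on simulated data. Folds are ratios of geometric means of signals without the added 16. They need not match the printed log2 differences, to which the SE belongs. The number of RNAs, 3 per line, limits the precision.

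Background was the 99th percentile of 44 unspiked controls. Of 862 named probe sets, 838 matched the RefSeq table. Named genes were all probe sets of the 4 genes, of each list those past the F-test and the brightest, and for likeness the 3 highest r, 1 probe set per gene, above background in at least 6 RNAs. Further members of the ferredoxin and translocation lists (fdx2, ftr1, tha9, hcf106, hcf106c) were named after their values were seen. Members and lists were chosen with earlier results of these data known. Alternatives covered the pseudocount, normalization, dim probe sets, the trend, the arrays, W23 replicates 2 and 3, the replicate block, the fit's lines and each RNA.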

Additional observations from a re-analysis of the deposited data

How the results depend on the processing

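Adjusted p over 21 alternatives stayed under 0.05 for the F-test of fdx3 (0.000822 to 0.0146) and tha4 (2.32e-05 to 0.00679), and the contrasts of fdx3 between Mo17 and both W23 and Wf9, and of tha4 between B73 and both, passed in all 22. For bsd2 the F-test gave 0.0535 with W23 replicates 2 and 3 counted as 1, and 0.0188 to 0.0674 on leaving out 1 RNA at a time; its contrast of Mo17 with Wf9 also missed with only those lines in the fit (0.0597). For the x-suffixed rbcs1 probe set, leaving out 1 RNA gave 0.00866 to 0.481. The exact permutation p for unequal change of the rbcs1 probe sets, chosen after seeing the data, was 0.0431 without B73 replicate 3 array 1 and 0.0312 to 0.488 on leaving out 1 RNA. Of 8346 probe sets, B73 against Wf9 called 1207, 791 to 1324 without 1 RNA and 632 with only those lines in the fit, where B73 against Mo17 called 743 in place of 1223. The growth number test called 0 to 828 without 1 RNA, the latter without W23 replicate 2. No difference that passed the test in the report's own settings changed sign. One that had not passed did and was then called: B73 minus Wf9 in the x-suffixed rbcs1 probe set went from -0.04 to 0.90 without B73 replicate 3.

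Replicate numbers were not taken as pairs. Over 3597 bright probe sets, deviations of same-numbered RNAs of different lines correlated above 0.1 in 15 of 18 cases, and the exceptions all involved W23 replicate 2 (-0.335, -0.424 and -0.620). With the growth number as a replicate block the F-test called 2960 probe sets in place of 2549. Its adjusted p was 0.0145 for bsd2, 0.00215 for fdx3 and 0.000629 for tha4, and bsd2 then differed between B73 and Wf9 (0.0311) and between Mo17 and W23 (0.0319), and fdx3 between B73 and W23 (0.0429).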

Other observations

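W23 replicate 2 deviated from its line as replicate 3 of the other lines did, and against their replicate 2. Over 3597 bright probe sets its deviation from the W23 mean correlated with that of replicate 3 at 0.351 in B73, 0.541 in Mo17 and 0.714 in Wf9, and with that of replicate 2 at -0.335, -0.424 and -0.620. The deviations within a line cancel out, so the r with replicate 3 and the r with replicate 2 are not separate evidence. In fdx3 W23 replicate 2 was the highest W23 value, 1747, while replicate 2 was the lowest of B73, Mo17 and Wf9.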
